A study of Mus musculus with 34 samples.

Results

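Rfx1-/- mouse ependymal cell cultures were compared with cultures of their wild type siblings by bulk RNA sequencing, across every gene that passed a filter on low counts. The comparison used 8 of the 34 libraries of the series, 4 from Rfx1-/- embryos (KO) and 4 from +/+ embryos (WT), and 13830 of the 21647 genes counted. The remaining 7817 genes had too few counts to be tested. All embryos were labelled C57BL/6 and embryonic day 18.5. The sample titles also carry the term OF1, which the labels do not explain. Lateral ventricular walls were dissected, the dissociated cells were grown to confluency, and serum was withdrawn for 4 days to start differentiation before RNA was taken. The other libraries of the series came from Rfx2 and Rfx3 lines, with cultures prepared in the same way (6 KO and 8 WT, and 6 KO and 6 WT). The labels do not say which part of Rfx1 was removed, nor whether each replicate is its own embryo or its own culture. The p-values therefore describe the variation among these libraries, part of which may be technical.

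RFX proteins are transcription factors with a shared winged-helix DNA-binding domain that bind the X-box, an imperfect inverted repeat found in the promoters of many genes for cilia. RFX2 and RFX3 are known to act with FOXJ1, the master factor of motile cilia, in cells that grow many cilia, and the ventricle lining of the brain is built of such ependymal cells. RFX1 is widely expressed and was first described through its binding to regulatory sequences of viral and major histocompatibility complex genes. RFX proteins bind as homodimers and heterodimers, so members of the family can occupy the same sites.

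The 8 libraries held 18152011 to 22482528 counts in KO and 19722298 to 50937800 counts in WT, with the highest total in WT replicate 4. Levels are given as CPM, counts scaled to a common library size with TMM factors. Foxj1, the marker of cells with motile cilia, was high in every library, at 1495, 1683, 1974 and 1262 CPM in KO replicates 1 to 4 and 1513, 1567, 1780 and 1919 CPM in WT replicates 1 to 4. The first principal component, with 35.1% of the variance, had KO replicate 2 and KO replicate 4 at its opposite ends and did not separate the genotypes. The Y-linked gene Ddx3y had 69.2 CPM in KO replicate 2 and 62.2 to 74.1 CPM in the WT libraries, but 0 to 0.056 CPM in KO replicates 1, 3 and 4. The sex makeup of the groups therefore differed, with Y-linked RNA beyond stray reads in 1 of 4 KO libraries and in 4 of 4 WT libraries.

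Rfx1 RNA was lower in every KO library. Rfx1 (ENSMUSG00000031706, chromosome 8, 84066834 to 84096992, plus strand, GRCm38) had 19.7, 30.1, 28.1 and 21.96 CPM in KO and 64.4, 51.9, 71.0 and 76.0 CPM in WT. The groups did not overlap, and the mean was 25.0 ± 4.95 CPM in KO and 65.9 ± 10.4 CPM in WT (SD, n = 4 each). The log2 difference was -1.40 (SE 0.16, 95% interval -1.76 to -1.04), with an edgeR quasi-likelihood p of 9.93e-06 and an adjusted p of 0.0687 over all tested genes. The adjusted p missed the threshold of 0.05 in the fit of the Rfx1 line alone and was 9.85e-08 where all 34 libraries shared the estimate of the spread. In the Rfx1 line alone, DESeq2 and edgeR without the low-count filter passed Rfx1 at that threshold, and limma-voom did not. The residual reads were counted over the whole gene and do not tell an intact transcript from a truncated one.

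**Figure D1:**
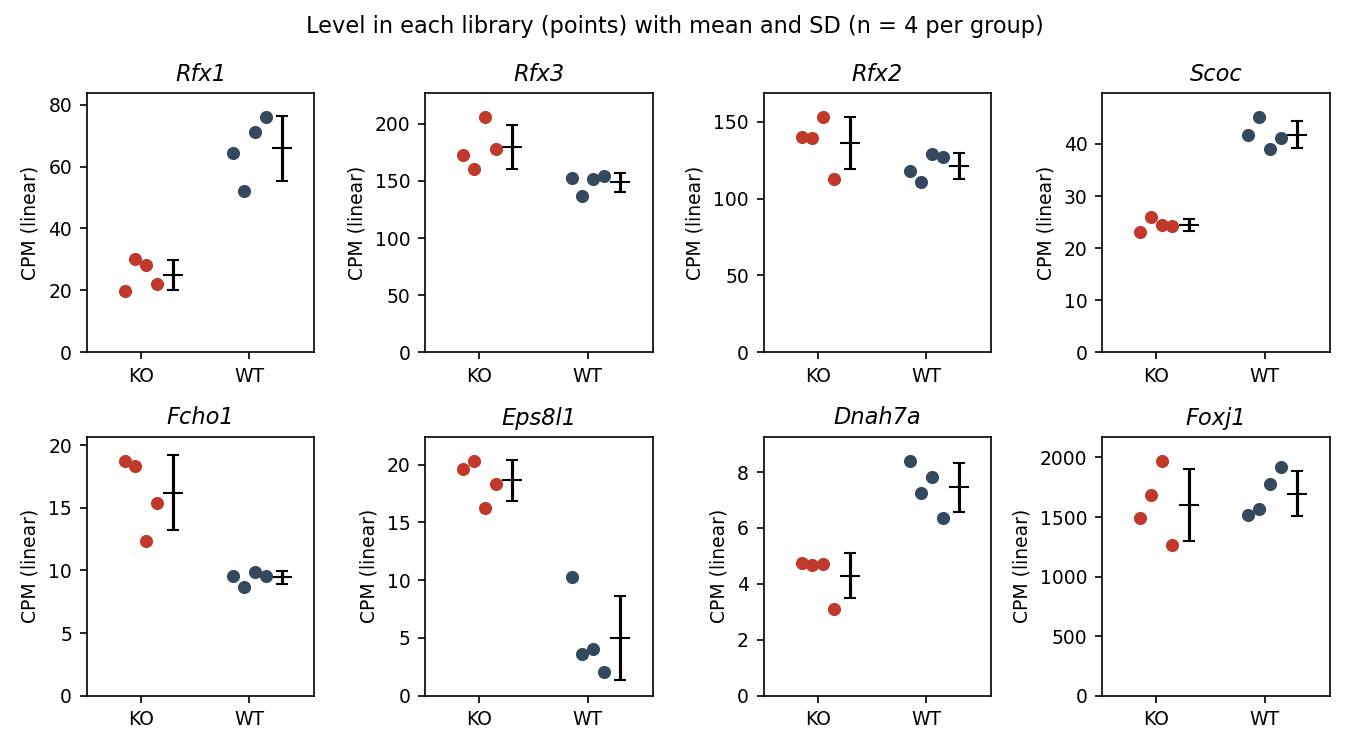
CPM of 8 genes on linear axes that start at 0, in the 4 KO libraries (red, left) and the 4 WT libraries (dark, right), with the mean and SD beside the points. Rfx1, Scoc and Dnah7a were lower in every KO library, Rfx3, Fcho1 and Eps8l1 were higher in every KO library, and the groups overlapped for Rfx2 and Foxj1.

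The promoters of a few genes show what an X-box-like sequence looks like in this gene set. The search was for GTTNCC, then 0 to 3 bases of any kind, then NGNAAC, on both strands of the RefSeq window from 250 bases before to 50 bases after each gene's start, in build GRCm38.p6. Capitals mark the match. Rfx2, itself an RFX gene (chromosome 17, 56830959 to 56831258, minus strand), Spag16, a central pair protein (chromosome 1, 69826720 to 69827019, plus strand), and Dnah9, an outer arm dynein heavy chain added after its values were seen (chromosome 11, 66168502 to 66168801, minus strand), hold a match. Scoc, the gene with the smallest p here (chromosome 8, 83458347 to 83458646, minus strand), holds none in this window.
Rfx2: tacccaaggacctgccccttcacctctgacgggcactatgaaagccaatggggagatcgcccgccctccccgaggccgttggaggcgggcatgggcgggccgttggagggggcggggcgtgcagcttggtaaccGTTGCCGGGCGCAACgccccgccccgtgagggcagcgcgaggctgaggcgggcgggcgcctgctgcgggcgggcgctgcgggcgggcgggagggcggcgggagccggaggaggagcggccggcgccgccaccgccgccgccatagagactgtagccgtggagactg
Spag16: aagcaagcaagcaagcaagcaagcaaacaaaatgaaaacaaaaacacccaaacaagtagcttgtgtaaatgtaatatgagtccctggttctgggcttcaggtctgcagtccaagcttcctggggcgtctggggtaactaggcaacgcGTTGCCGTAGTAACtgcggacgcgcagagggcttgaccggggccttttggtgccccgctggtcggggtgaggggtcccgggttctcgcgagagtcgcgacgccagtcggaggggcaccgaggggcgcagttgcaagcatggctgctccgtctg
Dnah9: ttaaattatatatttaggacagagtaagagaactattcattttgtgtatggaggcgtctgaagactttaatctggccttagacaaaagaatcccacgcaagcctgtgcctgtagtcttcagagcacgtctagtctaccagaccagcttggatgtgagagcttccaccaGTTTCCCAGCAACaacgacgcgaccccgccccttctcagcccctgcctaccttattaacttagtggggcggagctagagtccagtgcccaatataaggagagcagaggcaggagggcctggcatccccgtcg
Scoc: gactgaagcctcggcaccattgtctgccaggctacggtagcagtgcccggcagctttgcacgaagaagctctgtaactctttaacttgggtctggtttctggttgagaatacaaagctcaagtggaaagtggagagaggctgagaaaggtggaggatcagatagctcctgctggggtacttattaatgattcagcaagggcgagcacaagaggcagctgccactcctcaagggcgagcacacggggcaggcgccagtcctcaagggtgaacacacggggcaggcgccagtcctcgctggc
A match stood in the window of 579 of 27025 RefSeq genes (2.14%) and of 278 of the 10891 tested genes that have a window (2.55%). Among 175 ciliary genes with a window, 32 (18.3%) held one. A match is a description of letters, not a site of binding.

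The RFX relatives gave no call. Of 9 tested members of the family, Rfx1 and Rfx3 were the 2 with an unadjusted p below 0.05, beside 2.03% of all genes. Rfx3 had 172.7, 160.7, 206.0 and 178.4 CPM in KO and 152.2, 136.5, 151.5 and 154.5 CPM in WT, so every KO library lay above every WT library. The log2 difference of Rfx3 was 0.27 (SE 0.08) with an unadjusted p of 0.00827 and an adjusted p of 0.9998 in edgeR. Rfx2, whose promoter is printed above, had 140.1, 139.9, 153.2 and 112.7 CPM in KO and 118.2, 110.8, 129.0 and 127.1 CPM in WT, with overlapping groups and a log2 difference of 0.17 (SE 0.09). Rfx4, a member studied in neural tissue, differed by 0.09, and Rfx5, Rfxap and Rfxank, which form the complex at major histocompatibility class II promoters, differed by 0.02, -0.05 and -0.02 on the log2 scale. Rfx7 differed by 0.03 and Rfx8, at 0.50 to 0.83 CPM in KO and 0.46 to 0.93 CPM in WT, by -0.04. Rfx6 was below the filter.

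Regulators of multiciliation were likewise not called. Of 18 tested members, 0 were called by edgeR, beside 0.00723% of all tested genes, and 0 had an unadjusted p below 0.05, beside 2.03%. The median log2 difference of the 18 was -0.08, with a range from -0.17 to 0.08. Foxj1 differed by -0.08 (SE 0.14). Mcidas, which starts the multiciliation program with E2F factors, had 54.7, 64.7, 75.7 and 44.5 CPM in KO and 48.2, 67.8, 78.5 and 68.9 CPM in WT, a log2 difference of -0.14 (SE 0.18). Trp73, a p53 relative that lies upstream of Foxj1, had 61.4, 71.9, 87.5 and 43.2 CPM in KO and 66.6, 70.8, 82.9 and 76.9 CPM in WT. In all 3 genes KO replicate 3 was the highest and KO replicate 4 the lowest of the KO libraries, and the groups overlapped.

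Across all tested genes, 0 were called higher and 1 was called lower at an adjusted p below 0.05 in edgeR (0.00723% called). An unadjusted p below 0.05 was found for 159 genes with a positive difference (1.15%) and 122 with a negative one (0.882%), together 281 (2.03%). Every KO library lay above every WT library for 107 genes (0.774%) and below for 99 (0.716%). DESeq2 called 4 genes higher and 5 lower, and limma-voom called 1. For 12696 genes (91.8%) the 95% interval of the difference stayed within a 2-fold change either way, without adjustment for the number of genes. The median log2 difference was 0.0028, and 79 genes differed by more than 2-fold, of which edgeR called 0.

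The called gene was Scoc, a short coiled-coil protein of the Golgi with a role in autophagy. Scoc (ENSMUSG00000063253, chromosome 8, 83430084 to 83458391, minus strand) had 23.1, 25.99, 24.5 and 24.1 CPM in KO and 41.8, 45.2, 39.0 and 41.1 CPM in WT. Its replicates were tight, at 24.4 ± 1.19 CPM in KO and 41.8 ± 2.57 CPM in WT (SD, n = 4 each), and the groups did not overlap. The log2 difference was -0.77 (SE 0.07, 95% interval -0.92 to -0.62), with an edgeR adjusted p of 0.0146. In the Rfx2 line Scoc averaged 33.99 CPM in KO and 33.1 CPM in WT, and in the Rfx3 line 54.8 CPM in KO and 50.5 CPM in WT. The Rfx1 effect on Scoc lay below the Rfx2 effect by 0.81 and below the Rfx3 effect by 0.89 on the log2 scale (edgeR adjusted p of 9.48e-05 and 1.55e-05). The adjusted p of Scoc passed 0.05 without KO replicate 2 and without WT replicate 1, and lay between 0.0546 and 0.109 without each of the other 6 libraries, while its difference stayed between -0.80 and -0.73. With a term for Y-linked counts the difference was -0.69 and the call was lost (edgeR adjusted p of 0.749). The call was also lost with a block by replicate number, at a difference of -0.77 (edgeR adjusted p of 0.235).

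Scoc lies 0.608 Mb from Rfx1, and other genes with small p-values also lay on chromosome 8. Of 737 tested genes of chromosome 8 other than Rfx1, 50 (6.78%) had an unadjusted p below 0.05, against 1.19% to 2.91% on the other autosomes and 2.08% on the X chromosome. Of these 50 genes, 20 were higher and 30 lower in KO. With Rfx1 left out, chromosome 8 held 6 of the 10 genes with the smallest p, 11 of the first 20, 21 of the first 50 and 30 of the first 100, while it holds 5.33% of all tested genes. Groups without overlap were seen for 34 genes of chromosome 8 (4.61%), 13 higher and 21 lower, beside 1.49% of all tested genes.

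**Figure D2:**
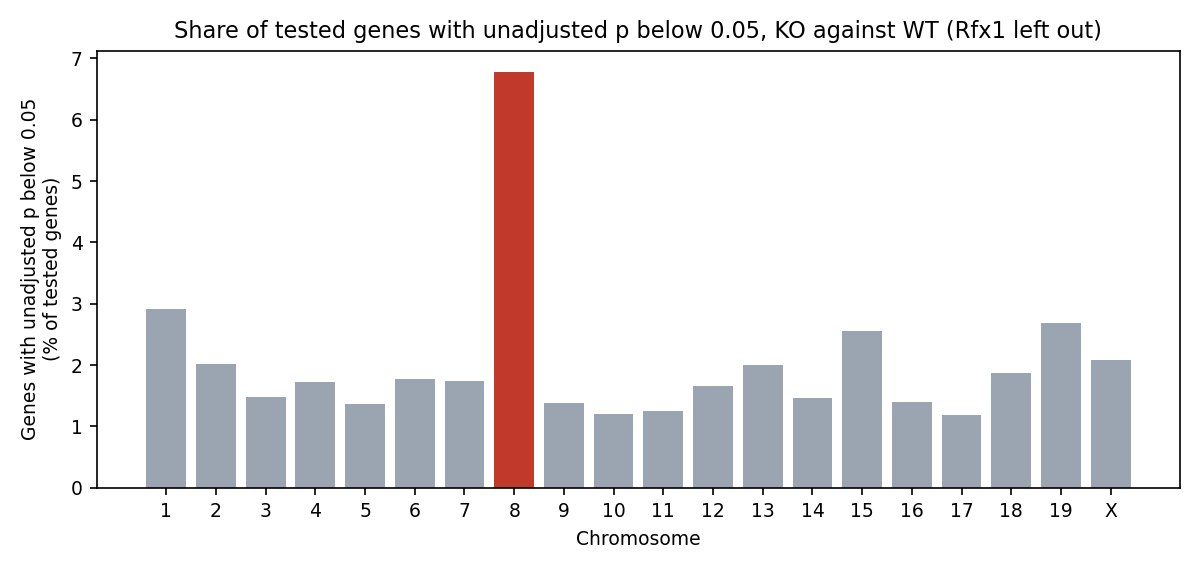
Percent of tested genes of each chromosome with an unadjusted p below 0.05 for KO against WT, with Rfx1 itself left out and the axis starting at 0. Chromosome 8 stood at 6.78%, and the other chromosomes shown lay between 1.19% and 2.91%.

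On chromosome 8 the genes with an unadjusted p below 0.05 were not spread evenly. On the centromere side of Rfx1 they made up 7 of 37 tested genes within 5 Mb, 0 of 13 from 5 to 10 Mb, 31 of 124 from 10 to 20 Mb (25.0%), 0 of 22 from 20 to 30 Mb and 4 of 194 farther out. On the telomere side they made up 5 of 58 within 5 Mb, 0 of 17 from 5 to 10 Mb, 0 of 36 from 10 to 20 Mb, 2 of 120 from 20 to 30 Mb and 1 of 116 farther out. Within 20 Mb of Rfx1 the count was 43 of 285 (15.1%), against 236 of 13540 tested genes elsewhere (1.74%). The outermost of these genes were Psd3, 15.9 Mb away on the centromere side, and Nfix, 0.603 Mb away on the telomere side, and both were picked out after their values were seen. Between Psd3 and Nfix, 43 of 175 tested genes (24.6%) had an unadjusted p below 0.05, 18 of them higher and 25 lower, and the median log2 difference was -0.02. The next such genes lay 37.0 Mb and 20.2 Mb from Rfx1. Under the alternatives run, and without each library in turn, the count within 20 Mb was 32 to 58 and the count elsewhere 174 to 539. Elsewhere it was 378 without KO replicate 2, 539 without KO replicate 3 and 360 without KO replicate 4.

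**Figure D3:**
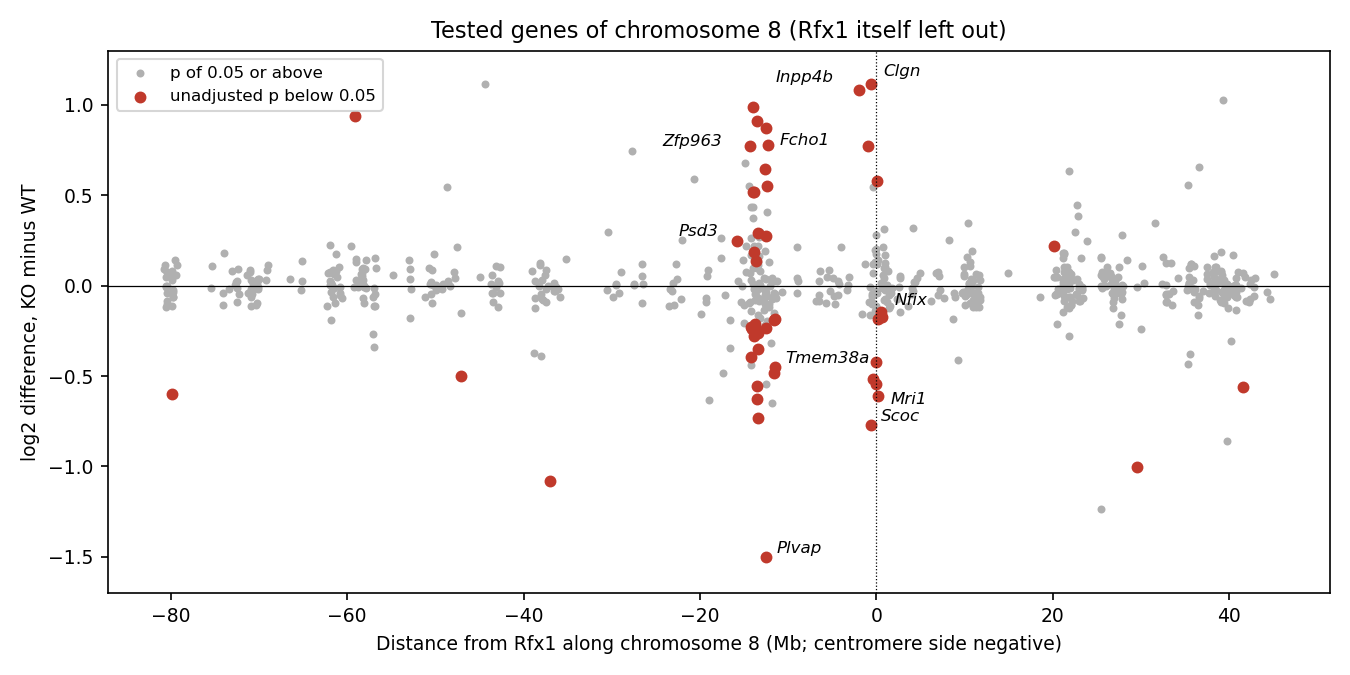
Log2 difference of KO minus WT for each tested gene of chromosome 8 against its distance from Rfx1 in Mb, with the centromere side negative and Rfx1 itself left out. Genes with an unadjusted p below 0.05 (red) gather within 20 Mb on the centromere side, in both directions, and close to Rfx1 on the telomere side.

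Several genes of this stretch differed by as much as Scoc. Fcho1, a protein of the first steps of clathrin-mediated endocytosis (chromosome 8, 71708387 to 71725716), had 18.8, 18.3, 12.3 and 15.4 CPM in KO and 9.57, 8.71, 9.91 and 9.57 CPM in WT. The KO libraries lay above the WT libraries in every case, and the log2 difference of Fcho1 was 0.78 (SE 0.14, unadjusted p of 0.00029). Inpp4b, a phosphoinositide phosphatase, had 25.9, 20.7, 25.5 and 22.6 CPM in KO and 17.7, 8.35, 8.79 and 10.1 CPM in WT, a log2 difference of 1.08 (SE 0.23). Clgn, the endoplasmic reticulum chaperone calmegin and the neighbour of Scoc, had 5.74, 5.07, 5.14 and 3.04 CPM in KO and 2.66, 2.44, 2.05 and 1.68 CPM in WT, a log2 difference of 1.12 (SE 0.24). Scoc and Clgn thus differed in opposite directions although their gene bodies lie next to each other.

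Lower levels were found for other members of the stretch. Mri1, an enzyme of methionine salvage 0.153 Mb from Rfx1, had 7.18, 9.43, 7.86 and 8.13 CPM in KO and 13.1, 10.7, 13.3 and 12.7 CPM in WT, a log2 difference of -0.61 (SE 0.12). Tmem38a, a monovalent cation channel of the endoplasmic reticulum, had 33.5, 34.9, 37.9 and 40.6 CPM in KO and 50.3, 55.3, 51.2 and 44.3 CPM in WT, a log2 difference of -0.45 (SE 0.09). Plvap, a protein of endothelial diaphragms, had 3.84, 4.16, 14.7 and 10.7 CPM in KO and 19.1, 24.0, 25.7 and 26.5 CPM in WT, a log2 difference of -1.50 (SE 0.39). The groups did not overlap for any of these 3 genes, and the KO libraries of Plvap fell into a low and a middle pair. Pgpep1 and Adgre5 differed by -0.26 and -0.51, Zfp963 and Rnf150 both by 0.77, and Nfix, a nuclear factor I transcription factor, by -0.18, all without overlap between the groups.

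None of these genes other than Scoc was called by edgeR in the fit of the Rfx1 line alone, with adjusted p-values of 0.9998, while DESeq2 called Fcho1, Inpp4b, Clgn, Mri1 and Tmem38a. With the spread shared over all 34 libraries, the same contrast called 2 genes higher (0.0135%) and 4 lower (0.0270%) of 14833, and all 6 lie on chromosome 8. They were Fcho1 and Zfp963, higher in KO, and Rfx1, Scoc, Mri1 and Tmem38a, lower in KO, with edgeR adjusted p-values of 0.000973, 0.0288, 9.85e-08, 5e-06, 0.0323 and 0.00275 in that order. In that fit, leaving out each Rfx1-line library called 3 to 7 genes, all on chromosome 8. Rfx1, Scoc and Fcho1 were called each time, Mri1 was lost in 6 of 8 such fits, Zfp963 in 5 and Tmem38a in 1, without KO replicate 1. With a term for Y-linked counts Zfp963 was lost, and DESeq2 called 9 genes there, of which 8 lie on chromosome 8. In the other lines Mri1 averaged 11.4 CPM in Rfx2 KO and 11.5 CPM in Rfx2 WT, and 11.6 CPM in Rfx3 KO and 11.2 CPM in Rfx3 WT. The Rfx1 effect on Mri1, Tmem38a and Scoc differed from the Rfx2 and the Rfx3 effect (edgeR adjusted p of 0.0429 or lower). Tmem38a was higher in Rfx3 KO, at 45.4 to 55.2 CPM, than in Rfx3 WT, at 41.5 to 44.7 CPM, without overlap. Its median was 36.8 CPM in Rfx1 KO and 51.2 CPM in Rfx1 WT, beside 39.7 CPM in Rfx2 WT and 42.5 CPM in Rfx3 WT. Fcho1 was also higher in the Rfx2 line, at 14.5 to 16.2 CPM in Rfx2 KO and 8.98 to 12.8 CPM in Rfx2 WT, without overlap, a log2 difference of 0.56 (edgeR adjusted p of 4.51e-05). The Rfx1 and Rfx2 effects on Fcho1 and Zfp963 differed by 0.22 and 0.65, with edgeR adjusted p of 0.537 and 0.0835. Each KO embryo carries the chromosome 8 on which Rfx1 was targeted, so the loss of Rfx1 and what that chromosome carries beside it cannot be told apart in this design.

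No gene of the cilium was called. Of 204 tested genes in 9 ciliary lists, 0 were called by edgeR in either direction, and 0 had an unadjusted p below 0.05 with a positive difference and 5 with a negative one, beside 1.15% and 0.882% of all tested genes. DESeq2 called 1 of them, Dnah7a. The groups did not overlap for 0 higher and 2 lower genes, beside 0.774% and 0.716% of all tested genes, and the median log2 difference was -0.016. The 95% interval stayed within a 2-fold change for 199 of the 204. Among 25 dynein subunits of the axoneme, whose heavy chains drive the beat, the median was 0.0093. It was 0.020 in 39 radial spoke, nexin link and central pair genes, and -0.10 in 25 microtubule inner proteins and tektins, which line the inside of the doublet microtubules. Dynein arm assembly and docking factors had a median of -0.04 over 21 genes. The intraflagellar transport trains that carry cargo along the axoneme stood at -0.07 for 21 IFT-B genes and 0.016 for 12 IFT-A and dynein-2 genes. The BBSome, the transition zone and the centriole amplification list stood at 0.0094, 0.0078 and -0.019 over 13, 22 and 27 genes.

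The 2 ciliary genes whose groups did not overlap were Dnah7a and Dnah7c, copies of an inner arm dynein heavy chain on chromosome 1. Dnah7a had 4.73, 4.67, 4.70 and 3.09 CPM in KO and 8.41, 7.23, 7.81 and 6.35 CPM in WT, a log2 difference of -0.79 (SE 0.17, unadjusted p of 0.00113, adjusted p of 0.9998 in edgeR). Dnah7c had 9.13, 7.78, 8.74 and 6.27 CPM in KO and 12.3, 11.1, 14.2 and 10.8 CPM in WT, a log2 difference of -0.60 (SE 0.14). The third copy, Dnah7b, which was added after its values were seen, had 75.2, 81.6, 116.7 and 79.8 CPM in KO and 71.5, 80.5, 96.0 and 91.7 CPM in WT, a log2 difference of 0.06 (SE 0.15). The 3 genes are near-identical, so reads could be split or lost between them in the counting, and their separate values are uncertain.

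The other 3 ciliary genes with an unadjusted p below 0.05, Spag16, Spag8 and Ttc30a1, had overlapping groups. Spag16, whose promoter holds a match, had 11.0, 14.3, 16.5 and 9.60 CPM in KO and 22.7, 15.5, 19.2 and 18.04 CPM in WT, a log2 difference of -0.55 (SE 0.18). Spag8, a microtubule inner protein, differed by -0.44 (SE 0.18) and Ttc30a1, an IFT-B subunit, by -0.27 (SE 0.10). Spag17, another central pair protein, had the most negative difference of its list at -0.73 (SE 0.34, unadjusted p of 0.0572), with 12.98, 11.3, 23.9 and 6.85 CPM in KO and 24.9, 17.1, 20.1 and 29.1 CPM in WT. KO replicate 3 of Spag17 lay above 2 of the WT libraries while KO replicate 4 was the lowest. Ift122, Bbs1 and Tctn1, of IFT-A, the BBSome and the transition zone, differed by 0.10, 0.14 and 0.12, with unadjusted p of 0.196, 0.0662 and 0.148 in edgeR.

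The KO libraries differed among themselves in ciliary RNA more than the groups did. The mean log2 level of the 204 ciliary genes, relative to the WT mean, was -0.14, -0.03, 0.30 and -0.35 in KO replicates 1 to 4 and -0.09, -0.14, 0.06 and 0.16 in WT replicates 1 to 4. KO replicate 3 was the highest and KO replicate 4 the lowest of the 8. Their summed level was 19373, 21299, 26563 and 16914 CPM in KO and 19825, 19481, 22202 and 23707 CPM in WT. In KO replicate 4 the mitotic list stood at 0.50, against -0.35 in KO replicate 3. In bulk RNA, fewer ependymal cells and less ciliary RNA per cell cannot be told apart.

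The ciliary genes were also set beside those of the Rfx2 and Rfx3 lines. In the fit of 34 libraries, the median log2 difference of KO against WT over the 204 genes was -0.015 in the Rfx1 line, -0.60 in the Rfx2 line and -0.71 in the Rfx3 line, beside 0.0052, 0.031 and 0.031 over all tested genes. For the 25 dynein subunits the medians were 0.011, -0.86 and -1.40. The Rfx1 effect lay above the Rfx3 effect for 711 of 14833 genes (4.79%) and below it for 438 (2.95%) at an adjusted p below 0.05 in edgeR. Of the 204 ciliary genes, 72 lay above and 0 below, among them 13 of 25 dynein subunits, 23 of 39 radial spoke, nexin link and central pair genes and 9 of 22 transition zone genes. With a term for Y-linked counts the count over ciliary genes was 54, while the count over all genes was 1293. The ciliary count was 14 without KO replicate 3, 31 without WT replicate 1 and 21 without WT replicate 2. The count over all genes, 1149 in both directions, was 286, 657 and 493 without those 3 libraries in the same order. Avpr1a, a vasopressin receptor, averaged 11.6 CPM in Rfx1 KO and 8.07 CPM in Rfx1 WT beside 1.76 CPM in Rfx3 KO and 11.2 CPM in Rfx3 WT.

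Against the Rfx2 line fewer genes passed. The Rfx1 effect lay above the Rfx2 effect for 88 genes (0.593%) and below it for 35 (0.236%) in edgeR, and 1 of the 204 ciliary genes lay above and 0 below. DESeq2 gave 14 of the 204 ciliary genes for this difference, beside 337 over all genes, both counted in both directions. The edgeR count over all genes, 123, was 46 without KO replicate 3 and 200 without KO replicate 4. It was 73, 63 and 62 without WT replicates 1, 2 and 3. Rfx2 itself had a difference of effects of 1.28, with 138 CPM in Rfx1 KO and 123 CPM in Rfx1 WT beside 49.2 CPM in Rfx2 KO and 106 CPM in Rfx2 WT. Ccdc33, a coiled-coil gene of ciliated cells, averaged 11.7 CPM in Rfx1 KO and 12.3 CPM in Rfx1 WT, while it averaged 0.900 CPM in Rfx2 KO and 9.53 CPM in Rfx2 WT. Its effects differed by 3.32 on the log2 scale (edgeR adjusted p of 0.00381). Tmem212, a marker of ependymal cells, averaged 4.41 CPM in Rfx1 KO and 6.07 CPM in Rfx1 WT beside 0.163 CPM in Rfx2 KO and 5.75 CPM in Rfx2 WT. Cdhr4, a cadherin-related gene of ciliated cells, averaged 4.78 CPM in Rfx1 KO and 9.32 CPM in Rfx1 WT beside 1.08 CPM in Rfx2 KO and 14.6 CPM in Rfx2 WT. Both had a smaller difference in the Rfx1 line, by 4.61 and 2.78 on the log2 scale (edgeR adjusted p of 0.0118 and 0.0175). Rtp1, a receptor transport protein, averaged 2.301 CPM in Rfx1 KO and 3.16 CPM in Rfx1 WT beside 10.5 CPM in Rfx2 KO and 3.11 CPM in Rfx2 WT.

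**Figure D4:**
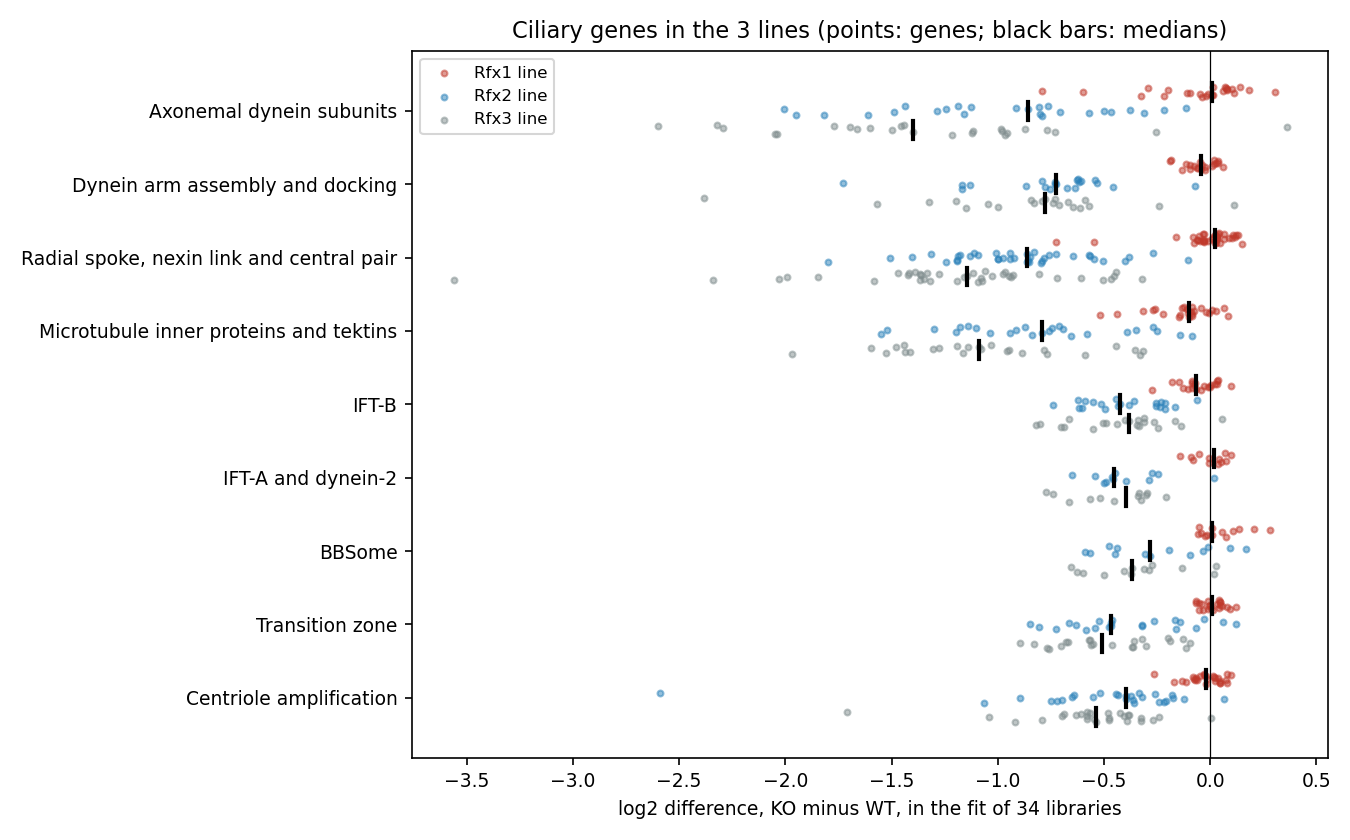
Log2 difference of KO minus WT for each ciliary gene (points) in the Rfx1, Rfx2 and Rfx3 lines, by list, with medians as black bars. The medians of the Rfx1 line lie at -0.10 to 0.02 in all 9 lists, and those of the Rfx2 and Rfx3 lines lie below them.

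Ciliary genes with and without an X-box-like match had medians close to 0 in the Rfx1 line. Over 32 ciliary genes with a match the median log2 differences were -0.014 in the Rfx1 line, -0.59 in the Rfx2 line and -0.86 in the Rfx3 line. Over 143 ciliary genes with a window and no match they were -0.011, -0.57 and -0.66. Among genes whose groups did not overlap in the Rfx1 line, 2 of 81 higher and 1 of 74 lower genes with a window held a match (2.47% and 1.35%), beside 2.55% of tested genes. Rfx2 and Rfx3 RNA, which encode factors for the same motif, stood at 0.17 and 0.27 in this line as given above.

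Away from chromosome 8, the largest difference without overlap belonged to Eps8l1, a relative of the actin regulator EPS8. Eps8l1 (chromosome 7, 4460674 to 4480487) had 19.6, 20.4, 16.2 and 18.4 CPM in KO and 10.3, 3.62, 4.00 and 2.05 CPM in WT, a log2 difference of 1.93 (SE 0.42, unadjusted p of 0.00118, adjusted p of 0.9998 in edgeR). The WT libraries were the ones that varied, with WT replicate 1 highest, and the edgeR adjusted p was 0.0275 without that library. DESeq2 called Eps8l1, with an adjusted p of 0.00611. In the other lines Eps8l1 averaged 15.9 CPM in Rfx2 KO and 15.5 CPM in Rfx2 WT, and 13.5 CPM in Rfx3 KO and 16.4 CPM in Rfx3 WT. The KO level of the Rfx1 line was therefore near the levels of the other 4 groups, and its WT level was the low one.

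Among further genes without a call by edgeR, those higher in every KO library included Abcg1, a cholesterol exporter, at 0.54 (SE 0.11), and Bsn, a presynaptic scaffold, at 0.57 (SE 0.14). Cacna1e, a voltage-gated calcium channel, had 29.0, 26.3, 27.0 and 29.3 CPM in KO and 22.1, 22.2, 22.98 and 18.002 CPM in WT, a log2 difference of 0.39 (SE 0.09). Mtf2, a partner of Polycomb complex 2, had 23.7, 23.1, 25.9 and 24.6 CPM in KO and 20.5, 20.4, 19.9 and 19.9 CPM in WT, a small but even log2 difference of 0.27 (SE 0.06). Ulbp1, a ligand of an activating receptor on natural killer cells, and Gad1, which makes the transmitter GABA, differed by 1.19 (SE 0.39) and 1.05 (SE 0.35), each with KO replicate 2 highest. Armc3, an armadillo-repeat gene of ciliated tissues, had 70.3, 67.1, 88.1 and 56.3 CPM in KO and 99.1, 93.7, 107.4 and 120.9 CPM in WT, a log2 difference of -0.58 (SE 0.13). Nhlrc4 and Pomc, the precursor of melanocortin peptides, differed by -0.96 (SE 0.31) and -0.84 (SE 0.23) and were lower in every KO library. All of these had an adjusted p of 0.9998 in edgeR.

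Markers of other cell types were uneven across the KO libraries. Of 17 microglia markers 0 were called by edgeR and 0 had an unadjusted p below 0.05, beside 2.03% of all tested genes. The microglia markers had a median log2 difference of 0.74. Their summed level was 63.7 to 525 CPM in KO and 105 to 222 CPM in WT. KO replicate 2 was the highest and KO replicate 4 the lowest of all 8 libraries. Csf1r, the receptor that microglia need, had 29.7, 59.6, 21.9 and 2.28 CPM in KO and 14.1, 15.1, 16.6 and 6.70 CPM in WT.

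Neuron and neuroblast markers summed to 786 to 873 CPM in KO and 737 to 897 CPM in WT. Of 21 tested, 3 had an unadjusted p below 0.05 with a positive difference and 0 with a negative one, beside 1.15% and 0.882% of all tested genes, and the median was 0.37. Dcx, a marker of migrating neuroblasts, had 6.91, 28.2, 6.19 and 17.8 CPM in KO and 8.36, 6.32, 6.56 and 5.604 CPM in WT. KO replicates 2 and 4 carried this difference. Oligodendrocyte lineage markers summed to 483 to 615 CPM in KO and 569 to 603 CPM in WT, with a median of 0.32 over 13 genes. An unadjusted p below 0.05 was found for 2 of the 13 with a positive difference and 1 with a negative one. Over all tested genes the shares were 1.15% and 0.882%. Cspg4, a marker of precursors, differed by 0.46 (SE 0.14), and Enpp6, of early myelinating cells and itself on chromosome 8, by -1.08 (SE 0.43). The levels of Enpp6 were low, with means of 0.605 CPM in KO and 1.31 CPM in WT. The part of these cell types in the single-gene values above was not tested.

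**Figure D5:**
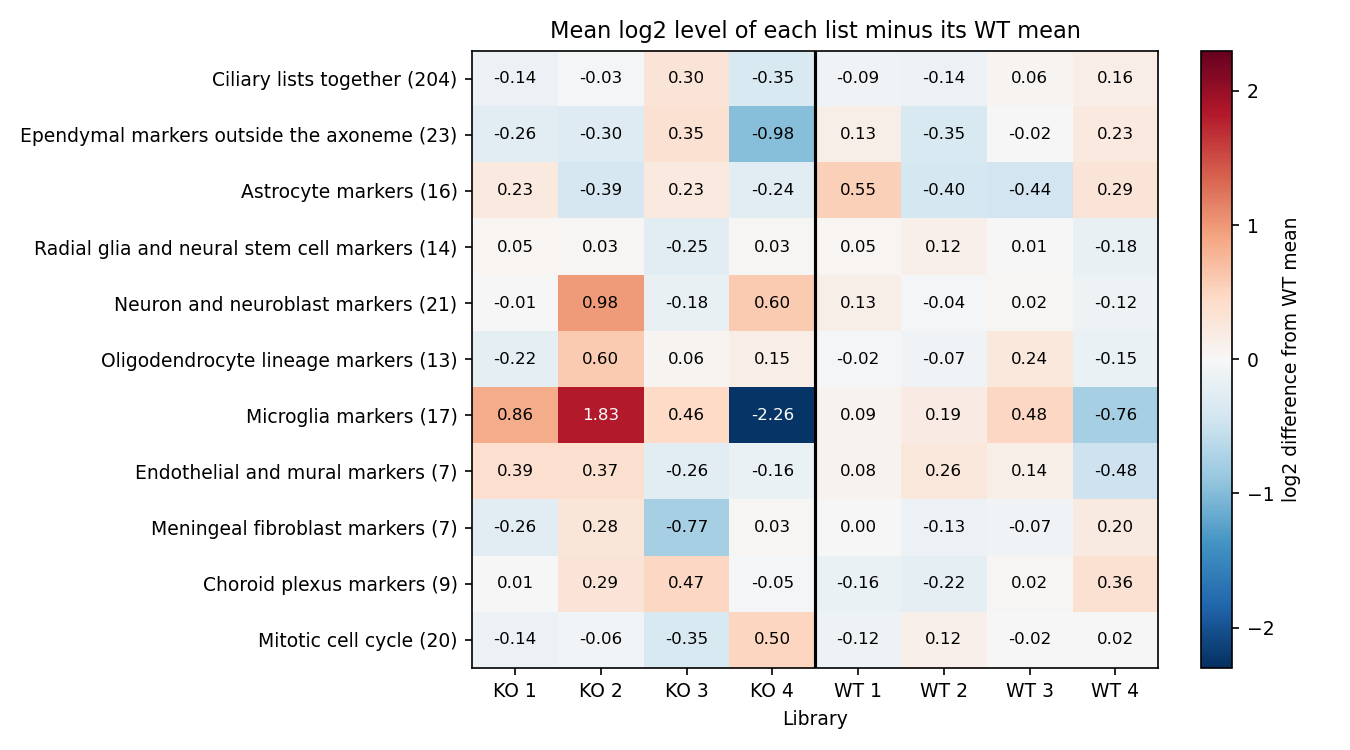
Mean log2 level of the tested genes of each list, relative to the WT mean, in the 4 KO libraries (left) and the 4 WT libraries (right), with the number of genes in brackets. Microglia markers ran from -2.26 in KO replicate 4 to 1.83 in KO replicate 2, and ciliary genes from -0.35 in KO replicate 4 to 0.30 in KO replicate 3.

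The other lists with markers gave no call. Ependymal markers outside the axoneme had a median of -0.12 over 23 genes, astrocyte markers -0.10 over 16 and radial glia markers -0.04 over 14. Mitotic genes stood at 0.02 over 20. Endothelial and mural, meningeal fibroblast and choroid plexus markers had medians of 0.20, -0.15 and 0.27 over 7, 7 and 9 genes. Msx1, a choroid plexus and roof plate transcription factor, was the 1 gene of these 7 lists with an unadjusted p below 0.05, at 6.29, 5.87, 7.77 and 5.23 CPM in KO and 3.58, 3.82, 4.51 and 5.84 CPM in WT, with overlap.

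Genes of the X chromosome that escape inactivation ran opposite to the Y-linked counts. Of 4 tested, 3 had an unadjusted p below 0.05 with a positive difference, beside 1.15% of all tested genes. Kdm6a, a histone demethylase, had 53.7, 32.8, 54.8 and 58.2 CPM in KO and 32.5, 34.1, 32.7 and 32.7 CPM in WT, so that KO replicate 2 lay at the WT level. Kdm5c, another demethylase, and Eif2s3x, a translation factor subunit, also had KO replicate 2 lowest among the KO libraries, with log2 differences of 0.41 (SE 0.12) and 0.54 (SE 0.17). Uty had 30.6 CPM in KO replicate 2 and 28.7 to 33.7 CPM in WT, and 0 to 0.056 CPM in the other KO libraries. With KO replicate 2 left out, edgeR called 9 genes. Of these, 7 were not Rfx1 or Scoc, namely the Y-linked Uty, Ddx3y, Eif2s3y, Kdm5d and Uba1y and the X-linked Kdm6a and Kdm5c. The sex of the embryo and the genotype can be separated in these groups only through KO replicate 2.

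Genes reported as RFX1 targets in other cells were not called. Of 13 tested, 0 had an unadjusted p below 0.05 in either direction, beside 2.03% of all tested genes. The median of the 13 was -0.03, and their differences ran from -0.30 to 1.24. Itgal, an integrin subunit of leukocytes, was at the upper end, with 1.504, 2.41, 1.58 and 0.238 CPM in KO and 0.967, 0.509, 0.744 and 0.293 CPM in WT, lowest in both groups in the library with the lowest microglia sum of that group. Of 10 listed major histocompatibility class II genes and regulators, 6 were tested, with a median of -0.04. Of these 6, 0 passed an unadjusted p of 0.05, beside 2.03% of all tested genes. The 6 include the regulators Rfx5, Rfxap and Rfxank given above, which held most of the reads. In KO replicate 1 these regulators had 36.4, 35.1 and 10.9 CPM, in a sum of 89.2 CPM. The values therefore say little about the class II genes themselves.

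Signalling and stress lists gave medians near 0. Planar cell polarity genes, which align cilia across the tissue, had a median of 0.03 over 14 genes, and Vangl2, a core component, differed by 0.29 (SE 0.09, unadjusted p of 0.0135) with 155.1, 176.5, 139.5 and 170.1 CPM in KO and 117.9, 144.8, 140.4 and 121.2 CPM in WT. Hedgehog and Notch pathway genes stood at 0.06 and 0.07 over 14 and 12 genes, and cholesterol synthesis at 0.0061 over 22. The integrated stress and unfolded protein response stood at -0.03 over 16 genes, of which Psat1, an enzyme of serine synthesis, had an unadjusted p of 0.0381 and a difference of -0.14. Immediate early, interferon, and hypoxia and glycolysis lists stood at -0.13, -0.014 and 0.0038 over 13, 14 and 15 genes. No gene of these 8 lists was called by edgeR, and Vangl2 and Psat1 were the 2 with an unadjusted p below 0.05.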

How the data were processed

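The authors deposited 1 table of raw read counts per Ensembl gene, and no other unit was used. CASAVA 1.8.2, STAR 2.4, featureCounts 1.4.6 and GRCm38 are named in the submitters' processing notes. Strandedness is not given in the sources used here. Symbols and coordinates came from GENCODE mouse release 21, which matched 21583 of 21647 gene IDs.

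Counts were filtered with filterByExpr (minimum count 10, minimum total 15), scaled by TMM and tested with edgeR 4.0.16 in R 4.3.3 (quasi-likelihood, Benjamini-Hochberg adjustment, threshold 0.05) on the 8 Rfx1-line libraries alone. Differences between lines came from 1 such fit of all 34 libraries. CPM are counts scaled to a library of a common size with TMM factors. DESeq2 1.42.0, limma 3.58.1 and sva 3.50.0 gave alternatives, with other filters, scaling, blocks and left-out libraries. The tests were tried on simulated counts. Promoter windows came from RefSeq.

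The genes, lists and comparisons were chosen with earlier results of these data known. Named genes were the RFX genes, Foxj1, Mcidas, called genes, genes without overlap with the smallest p or largest difference (mean log2 CPM of at least 1), genes within 10 Mb of Rfx1 with an unadjusted p below 0.05, up to 3 members of each list by p, the largest differences between lines, and Y-linked genes.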

Additional observations from a re-analysis of the deposited data

Results flagged for a closer look

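In 9 of 142 groups of 4 libraries, 1 library stood farther from the others than Dixon's 95% critical value allows, and chance alone flags about 1 group in 20. In the KO group these were replicate 2 at 69.2 CPM for Ddx3y, 30.6 CPM for Uty and 5.82 CPM for Ulbp1, replicate 4 at 3.09 CPM for Dnah7a, replicate 3 at 117 CPM for Dnah7b, and replicate 1 at 56.5 CPM for Tctn1. In the WT group they were replicate 2 at 136 CPM for Rfx3 and 34.1 CPM for Kdm6a, and replicate 4 at 18.002 CPM for Cacna1e.

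Effects of KO against WT that differed between the Rfx1 line and another line, by the edgeR test of that difference, were the other reason for a closer look. The Rfx1 effect was above the Rfx2 effect for 88 genes and below it for 35, and above the Rfx3 effect for 711 genes and below it for 438. Against the Rfx2 line, the differences of named genes on the log2 scale were 4.61 for Tmem212, 3.32 for Ccdc33, 2.78 for Cdhr4 and 1.28 for Rfx2. They were -2.21 for Rtp1, -1.31 for Rfx1, -0.81 for Scoc, -0.60 for Mri1, -0.58 for Vangl2 and -0.57 for Tmem38a.

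Against the Rfx3 line, genes of cilia and ciliated cells differed by 3.17 for Tmem212, 2.83 for Spag17, 2.46 for Ccdc33, 1.79 for Spag16, 1.09 for Dnah9, 0.93 for Dnah7b, 0.79 for Bbs1 and 0.58 for Tctn1. RFX genes differed by 2.41 for Rfx3, 0.72 for Rfx2 and -0.96 for Rfx1. Rfx1 RNA was itself lower in Rfx3 KO, at 37.0 to 56.4 CPM, than in Rfx3 WT, at 56.9 to 73.5 CPM, without overlap. Chromosome 8 genes differed by 1.77 for Inpp4b, 0.83 for Fcho1, 0.79 for Zfp963, -0.42 for Pgpep1, -0.66 for Mri1, -0.70 for Tmem38a and -0.89 for Scoc. Other genes differed by 3.21 for Avpr1a, 2.21 for Eps8l1, 1.94 for Rtp1, 1.18 for Msx1, 0.91 for Bsn and 0.45 for Mtf2. The X-linked genes Kdm6a and Kdm5c differed by 0.90 and 0.87. Y-linked genes had a median log2 difference of KO against WT of -1.97 in the Rfx1 line and 1.02 in the Rfx3 line. The balance of Y-linked RNA thus also differed in the Rfx3 line, in the opposite direction. The part of sex in the differences of Kdm6a and Kdm5c was not tested.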

How the results depend on the processing

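The Rfx1 line alone gave 1 called gene, and 2 without the low-count filter, 9 with DESeq2, 6 in the fit of all 34 libraries, 0 with a term for Y-linked counts, and 0 to 9 without single libraries. The 9 called without KO replicate 2 were Rfx1, Scoc and genes of the X and Y chromosomes. Same-numbered KO and WT libraries correlated at 0.45, 0.32, -0.09 and 0.23. KO replicates 1 and 4 correlated best with WT replicates 1 and 4, and KO replicates 2 and 3 with WT replicates 3 and 4. These correlations do not settle whether replicate numbers pair the samples. With the replicate block, 0 genes were called in the Rfx1 line and 51 in place of 123 for the difference from the Rfx2 line. That difference gave 337 genes with DESeq2 and 46 to 200 without single libraries, and the difference from the Rfx3 line gave 286 to 1606 in place of 1149. With the block, Scoc kept a log2 difference of -0.77 but had an edgeR adjusted p of 0.235, and the fit of 34 libraries lost Mri1 and Tmem38a.

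Some log2 differences changed sign. The Y-linked term, which separates the libraries by Y-linked RNA, brought the X-linked genes Kdm6a, Kdm5c and Eif2s3x to -0.00326, -0.00337 and -0.068, against 0.60, 0.41 and 0.54 without it. This term can be told apart from genotype only through KO replicate 2. The cause of the changes was not tested, for these X-linked genes or for the others. With the Y-linked term, Rfx7 stood at -0.072, Rfxap at 0.035, Rfxank at 0.016, Dnah7b at -0.065, Dnah9 at -0.055 and Rtp1 at 0.11. With limma-voom Rfx8 stood at 0.00432, and with sample quality weights Rfxank stood at 0.023 and Dnah7b at -0.044. Without single libraries the range was -0.0071 to 0.063 for Rfx7, -0.18 to 0.12 for Rfx8, -0.080 to 0.061 for Rfxank, -0.20 to 0.019 for Foxj1, -0.11 to 0.13 for Dnah7b, -0.062 to 0.18 for Dnah9 and -0.50 to 0.16 for Ccdc33. The counts by distance from Rfx1, the calls of the 34-library fit under each setting and the counts of ciliary genes passing were chosen after seeing the data.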
